A study of Mus musculus with 7 samples.

Results

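Many mouse genes are still known by the serial number of the RIKEN cDNA clone in which they were found, and some series of those numbers come mostly from testis libraries. The genes described here are the symbols of 5 such series, the series of 1700012B09Rik, 4930519F16Rik, 4931429I11Rik, 4932411E22Rik and 4933434E20Rik, that had at least 10 counts in at least 3 of the 7 libraries. Of 907 such symbols among the 32531 listed, 239 met this rule; the clones were thus selected on their measured counts, and 348 had 0 counts in every library. Adult mice of the line Dcdc2a-EGFP/Rpl10a (ES2575), in which the ribosomal protein Rpl10a carries EGFP, gave tissue from around the ventricles of the brain. There were 3 libraries of RNA bound to immunopurified tagged ribosomes, called IP 1, IP 3 and IP 4, and 4 of total RNA from the homogenate, called Input 1 to Input 4. All 7 came from this transgenic line, and no mice without the tag were analysed here. Sex, strain background and the number of animals per library are not given in the labels, so p-values measure the spread between these libraries, which may be technical.

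Ependymal cells line the ventricles and move cerebrospinal fluid with motile cilia. The axoneme of a motile cilium is built of doublet microtubules, dynein arms, radial spokes and a central pair, and the sperm tail has the same plan, so genes of the axoneme are commonly found as testis cDNAs. TRAP, translating ribosome affinity purification, pulls down ribosomes that carry the tag, and the RNA on them is compared with total RNA of the same tissue.

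Counts assigned to genes ranged from 37203427 to 52175180 per library, at which 3 counts equal 0.0575 to 0.0806 CPM (counts scaled to a common library total), counting error only. In IP 1, IP 3 and IP 4 the 10 ependymal marker genes fixed for this check summed to 189.9, 2607 and 2185 CPM, against 33.0 to 47.8 in Input, and all 10 were called higher. Dcdc2a itself had 43.6, 411.5 and 174.5 CPM in the IPs and 27.7 to 73.9 in Input (edgeR adjusted p = 0.0743), so IP 1 lay within the Input range. Of 7 genes of mural cells and fibroblasts 5 were called higher, with sums of 82.3, 1188 and 584.6 CPM in IP 1, IP 3 and IP 4 and 31.4 to 74.9 in Input, and the part of either list in the results was not tested. Of 6 astrocyte genes 1 was called higher and of 6 endothelial genes 1, 2 of 6 oligodendrocyte genes were called lower, and no neuron, microglia or choroid plexus gene of 6 each was called. Of 8 testis germ cell genes Prm1, Tnp1 and Ldhc had 0 counts in every library, and the 8 summed to 0.975 to 4.20 CPM in IP and 4.44 to 7.29 in Input. Reads that fell in more than 1 gene made up 2.88% to 3.27% of assigned plus ambiguous reads in IP and 14.7% to 21.3% in Input, and their part in the values of overlapping genes was not tested.

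A small share of the clones, nearly all of them protein-coding, stood higher on tagged ribosomes. Of the 236 clones tested 19 were higher and 5 lower in IP (edgeR's quasi-likelihood test, Benjamini-Hochberg adjusted p under 0.05 over all genes), which is 8.05% and 2.12%. Over all 17375 tested genes the shares were 3.64% higher and 2.16% lower. The median log2 fold of the clones was 0.05, beside 0.06 over all tested genes. Log2 folds of the 19 ran from 1.97 to 6.73, and in 18 of them every IP was above every Input. IP 1 was the lowest of the 3 IP libraries in all 19. In all 5 lower clones every IP was below every Input. Over all clones tested, every IP was above every Input in 26 of 236 and below in 24, beside 9.55% and 10.4% of all tested genes. A higher level in IP means a larger share of the purified RNA than of the total RNA, and what raised it was not tested.

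**Figure D1:**
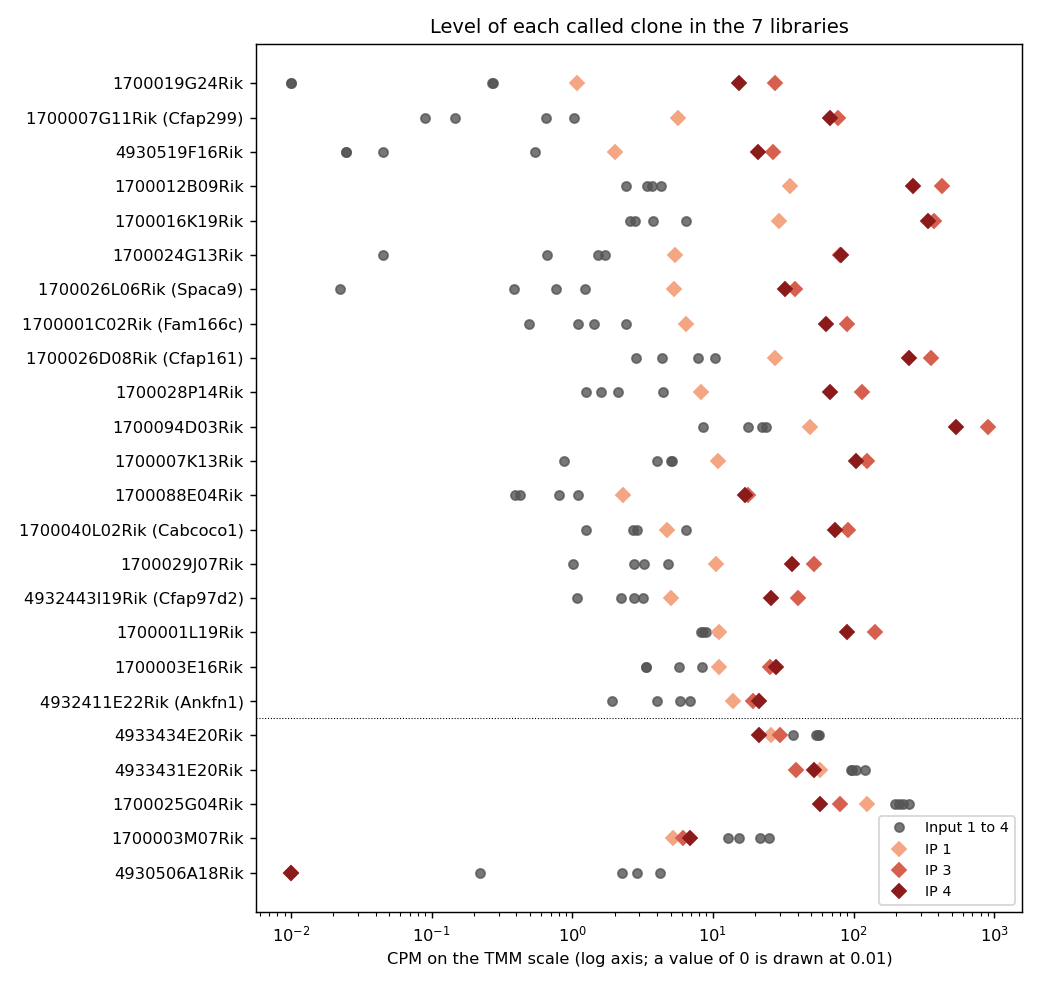
Level of the 24 clones called between IP and Input, in CPM on the TMM scale (log axis), with 1 point per library; diamonds are IP libraries and grey circles Input libraries, and clones above the dotted line were called higher. IP 3 and IP 4 lie far to the right of Input for the higher clones, with IP 1 mostly between them; RefSeq's name for a clone, where it has another, is in brackets.

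The number of calls varied widely with the library left out and with the fit. With the replicate number, which marks a shared sequencing lane, as a block, 7 clones were called higher and 0 lower, beside 0.553% and 0.19% of all genes; 5 of the 7 were among the 19. The 14 that lost the call had blocked adjusted p from 0.0584 to 0.266, and the 5 lower clones from 0.0612 to 0.171 (edgeR). For each called clone the adjusted p of that fit is given below as "blocked"; among clones not called, the block changed the call of Cfap77 and Cfap61 only. Without IP 1, 43 clones were higher and 23 lower, beside 12.5% and 9.55% of all genes, and the 24 calls were kept. Without IP 3, 11 clones were higher and 4 lower, beside 1.91% and 1.98% of all genes. Without IP 4 only 1700012B09Rik and 1700016K19Rik were called, both higher, beside 0.0556% of all genes higher and 0.106% lower. Without Input 1 or Input 2 the only call was 1700012B09Rik, without Input 3 it was 4930519F16Rik, and without Input 4 there was none (edgeR). In these fits, without Input 1, 2, 3 and 4 in turn, 0.123%, 0.0704%, 0.0235% and 0.0236% of all genes were higher and 0.176%, 0.141%, 0.0941% and 0.112% lower. With all libraries, an unadjusted p under 0.05 was reached by 43 on the higher and 20 on the lower side, beside 13.3% and 9.4% of all genes. DESeq2 called 36 and 15, beside 8.78% and 6.38% of all genes.

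**Figure D2:**
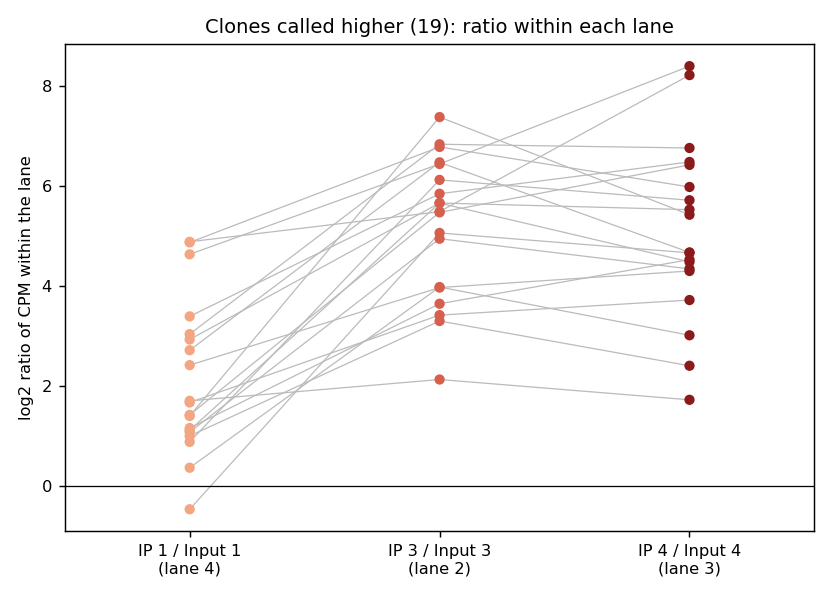
Log2 ratio of CPM (prior count of 2) between the IP and the Input of the same lane for each of the 19 clones called higher; a line joins the 3 values of a clone. The medians were 1.68 on lane 4 (IP 1), 5.49 on lane 2 (IP 3) and 4.68 on lane 3 (IP 4), and the point below 0 is 1700040L02Rik on lane 4.

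Within lanes, 18 of the 19 were above their Input on lane 4 and all 19 on lanes 2 and 3. The exception was 1700040L02Rik, which RefSeq names Cabcoco1. All 5 lower clones were below their Input on each of these 3 lanes.

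Promoters of some of the higher clones hold GTTGCCA, called the core motif here. It is only a part of the X-box, the element bound by RFX factors, which are known regulators of cilium genes. The windows were RefSeq's, of 250 bases before and 50 after a gene start (GRCm38.p6), and GTTGCCA was searched on both strands. Of the 19 higher clones 14 had such a window and 5 of these held the core motif (35.7%), beside 19 of 174 other clones (10.9%) and 5.02% of the 27025 genes with a window. Among all genes called higher, 39 of the 480 with a window held it (8.12%), and of the motile cilium genes described at the end 8 of 46 (17.4%). Coding genes were 17 of the 19 higher clones but 106 of all 239, and the part of class in these shares was not tested. The forkhead motif TGTTTAC, the core bound by FOXJ1 relatives, was in 1 of the 14 windows, in 4 of the 174 (2.30%) and in 4.05% of all genes. A match describes letters in a window, not a bound site. The 5 clones with the core motif are shown 5′ to 3′ on the strand of the gene, with the core motif or its reverse complement in capitals, because they carry this difference; a short run is printed where an annotated transcript starts nearby.
1700026L06Rik (Spaca9), chr2:28699728-28699847, minus strand: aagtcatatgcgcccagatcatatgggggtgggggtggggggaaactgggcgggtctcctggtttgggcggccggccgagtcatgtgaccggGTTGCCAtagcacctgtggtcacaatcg
1700001C02Rik (Fam166c), chr5:30465909-30466028, plus strand: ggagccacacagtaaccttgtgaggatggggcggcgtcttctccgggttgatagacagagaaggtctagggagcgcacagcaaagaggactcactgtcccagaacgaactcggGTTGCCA
1700026D08Rik (Cfap161), chr7:83794885-83794914, minus strand: tgaccaacTGGCAACTGGCAACtgcctggt
1700001L19Rik, chr13:68597407-68597436, plus strand: accaaggcgtaGTTGCCAggcaacagccga
4932443I19Rik (Cfap97d2), chr8:13705858-13705887, plus strand: cctgggtgccaTGGCAACcgtcacatgacc
In Spaca9 the core motif began 104 bases before the RefSeq start and in Fam166c 55 bases before it. Cfap161 held 3 copies, beginning 67, 60 and 40 bases before the start, of which the first and second directly follow each other. In 1700001L19Rik and Cfap97d2 it began 21 and 20 bases before the start. Fam166c also held the forkhead motif, 19 bases before the start and outside the run shown.

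Among the coding clones with the largest folds, the clearest were a pair of short proteins without a proper RefSeq name. Positions are on mm10, from GENCODE M21 unless said otherwise. 1700012B09Rik (ENSMUSG00000031927.9, chromosome 9, 14756587 to 14771030, minus strand; 132 codons) had 35.5, 427 and 266 CPM in IP 1, IP 3 and IP 4. Its Inputs 1 to 4 had 4.27, 3.398, 3.69 and 2.41 CPM. Every IP was thus far above Input, with a log2 fold of 6.14 ± 0.73 (SE, adjusted p by edgeR = 0.00846, blocked 0.0584), the smallest p of the clones. 1700016K19Rik (ENSMUSG00000053783.5, chromosome 11, 75999912 to 76003569, plus strand; 228 codons) had 29.6, 376 and 338 CPM in IP and 2.77, 2.59, 6.47 and 3.73 CPM in Input. The log2 fold here was 5.99 ± 0.80 (SE, adjusted p by edgeR = 0.0118, blocked 0.0345). Levels per kilobase of exon were taken only for clones with a GENCODE exon length, which 1700094D03Rik, described next, lacks. Among those ranked, these clones also had the highest mean level in IP, at 297 and 269 CPM per kb, followed by 1700007K13Rik at 82.7. Their mean levels in Input were 4.2, 4.23 and 3.897 CPM per kb.

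The coding clone with the most CPM in IP was 1700094D03Rik (RefSeq interval on chromosome 3, 90062808 to 90068347), with 48.9, 898 and 539 CPM in the IPs and 22.4, 8.45, 17.7 and 23.97 CPM in the Inputs. IP 3 and IP 4 were far above the highest Input, and IP 1 was above it by less. Its log2 fold was 4.77 ± 0.81 (SE, adjusted p by edgeR = 0.01799, blocked 0.132). Its interval lies wholly within that of another clone, 4933434E20Rik (chromosome 3, 90051636 to 90068347, plus strand), which was called lower. 4933434E20Rik had 25.8, 29.9 and 21.2 CPM in IP and 55.8, 56.9, 54.4 and 37.3 CPM in Input, a log2 fold of -0.996 ± 0.25 (SE, adjusted p by edgeR = 0.0473, blocked 0.1705). The pair thus moved in opposite directions while sharing an interval of 5540 bases. Whether their exons overlap was not examined, and both counts are uncertain to that extent.

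Several of the higher clones have since been given names of cilium or flagellum proteins. RefSeq uses another symbol for 44 of the 239 clones, and 7 of these 44 were higher and 0 lower (15.9% higher). Of the 192 other clones tested 12 were higher and 5 lower (6.25% and 2.6%), beside 3.64% and 2.16% of all genes. Of the 44, 9 have symbols that begin with Cfap, a prefix that stands for cilia and flagella associated protein. This group was picked out after its values were seen. All 9 had a positive log2 fold, with a median of 3.81, and 3 of the 9 were called. Cfap299, the clone 1700007G11Rik (ENSMUSG00000057816.7, chromosome 5, 98329304 to 98802047, plus strand), had 5.61, 77.2 and 68.1 CPM in IP and 0.147, 0.0894, 0.655 and 1.03 in Input. All IPs were above all Inputs, with a log2 fold of 6.71 ± 1.08 (SE, adjusted p by edgeR = 0.0156, blocked 0.00488). It overlaps the model E030032P16Rik on the same strand, so its count is uncertain, and it met the count rule only with its IP counts. Cfap161, the clone 1700026D08Rik (ENSMUSG00000011154.17, chromosome 7, 83774101 to 83794880, minus strand), a protein of the inside of doublet microtubules, had 27.7, 353 and 247 CPM in IP and 10.3, 4.31, 7.89 and 2.82 in Input. Its log2 fold was 5.05 ± 0.80 (SE, adjusted p by edgeR = 0.0147, blocked 0.127), and the X-box core motifs shown above lie before its start. Cfap97d2, the clone 4932443I19Rik, had 5.01, 40.3 and 26.02 CPM in IP and 2.21, 2.73, 3.17 and 1.08 in Input, a log2 fold of 3.37 ± 0.65 (SE, adjusted p by edgeR = 0.0213, blocked 0.118).

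The other 6 clones named Cfap did not pass the test. Cfap77 (1700101E01Rik), another protein inside doublet microtubules, had 1.46, 33.2 and 42.5 CPM in IP and 0, 0.179, 0.164 and 1.596 in Input, so that IP 1 lay below Input 4. Its log2 fold was 5.72 ± 1.44 (SE, adjusted p by edgeR = 0.0522), and it was called with the block (edgeR adjusted p = 0.0344). Cfap77 met the count rule only with its IP counts. Cfap61 (4930529M08Rik), of the radial spoke region, had 4.08, 18.3 and 14.9 CPM in IP and 0.0245, 2.01, 0.382 and 0.196 in Input, with every IP above every Input. Its log2 fold was 4.24 ± 1.12 (SE, adjusted p by edgeR = 0.0568, blocked 0.0256), and it overlaps Crnkl1 on the other strand, so its count is uncertain. This clone too met the count rule only with its IP counts. Cfap206 (1700003M02Rik) had 4.81, 64.8 and 51.8 CPM in IP against 0, 1.498, 2.05 and 8.03 in Input, where Input 4 was above IP 1 (log2 fold 3.81 ± 1.31 SE, adjusted p by edgeR = 0.126). Cfap157 (1700019L03Rik), known from the sperm flagellum, and Cfap54 (4930485B16Rik), a protein of the central pair, had log2 folds of 3.56 ± 1.01 and 1.59 ± 0.65 (SE, adjusted p by edgeR = 0.0679 and 0.177). Cfap20dc (4930452B06Rik) had 13.6, 23.3 and 21.03 CPM in IP and 20.7, 15.5, 16.3 and 19.7 in Input, with overlapping groups and a log2 fold of 0.10 ± 0.30 (SE, adjusted p by edgeR = 0.889).

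Some genes were counted in 2 rows, once under the clone's symbol and once under the later name. The row named Cfap61 reached 2.67 ± 0.64 (SE, adjusted p by edgeR = 0.0404, blocked 0.215), so the name passed where the clone row missed. For Ankfn1 the reverse held: the clone row 4932411E22Rik had 13.8, 19.3 and 21.4 CPM in IP and 6.84, 5.81, 1.91 and 3.98 in Input (log2 fold 1.97 ± 0.46 SE, adjusted p by edgeR = 0.0374, blocked 0.142). The row named Ankfn1 reached 1.58 ± 0.47 (SE, adjusted p by edgeR = 0.0757). The row named Cfap54 had 1.94 ± 0.94 (SE, adjusted p by edgeR = 0.253). In these 3 pairs both rows had positive folds, and neither row alone need be the gene's whole count. In a further pair the clone row 1700024F13Rik was too low to be tested, with 0.0401, 0 and 0.215 CPM in IP and 0.417, 0, 0.0819 and 2.14 in Input. Its partner row 2810429I04Rik had 0.24 ± 0.65 (SE, adjusted p by edgeR = 0.874).

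Other named clones among the higher ones included Spaca9, Fam166c and Cabcoco1. Spaca9 (1700026L06Rik, ENSMUSG00000026809.15, chromosome 2, 28692080 to 28699727, minus strand), first described in the sperm acrosome and also found inside cilium microtubules, had 5.27, 38.04 and 32.5 CPM in IP and 0.7603, 0.0223, 0.382 and 1.23 in Input. All IPs were above all Inputs, at a log2 fold of 5.40 ± 1.03 (SE, adjusted p by edgeR = 0.0231, blocked 0.0606). Within 1 kb of its start, on the other strand, begins Ak8, an adenylate kinase of cilia, which was called higher (log2 fold 4.03 ± 0.87 SE, adjusted p by edgeR = 0.0293, blocked 0.185). Of the higher clones 2 others had a tested neighbour of this kind, and neither was called: Wdr54 beside 1700003E16Rik had a log2 fold of 0.21 ± 0.36 and Ufsp2 beside 1700029J07Rik 0.23 ± 0.22 (SE, adjusted p by edgeR = 0.788 and 0.597). Fam166c (1700001C02Rik, ENSMUSG00000029182.10, chromosome 5, 30466047 to 30484088, plus strand), also a protein inside doublet microtubules, had 6.45, 89.5 and 63.3 CPM in IP and 2.404, 1.095, 0.491 and 1.42 in Input, with no overlap of the groups (log2 fold 5.29 ± 0.86 SE, adjusted p by edgeR = 0.0157, blocked 0.153). Cabcoco1 (1700040L02Rik, ENSMUSG00000019945.10, chromosome 10, 68430953 to 68541896, minus strand), a calcium-binding coiled-coil protein named for cilia, had 4.68, 91.98 and 74.2 CPM in IP and 6.45, 1.25, 2.703 and 2.87 in Input. Here IP 1 lay below Input 1, the only overlap among the 19 (log2 fold 4.10 ± 0.89 SE, adjusted p by edgeR = 0.0347, blocked 0.266). Cabcoco1 overlaps the antisense model Gm32872 and is uncertain.

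The remaining higher coding clones have no other RefSeq symbol. 1700024G13Rik (ENSMUSG00000072473.4, chromosome 14, 32376068 to 32388391, minus strand), the shortest of them at 93 codons, had 5.37, 79.8 and 81.6 CPM in IP and 0.662, 0.0447, 1.53 and 1.72 in Input. It kept its call with the block (log2 fold 5.82 ± 1.12 SE, adjusted p by edgeR = 0.0249, blocked 0.0344). 1700007K13Rik (ENSMUSG00000026831.16, chromosome 2, 28462001 to 28466332, minus strand), known elsewhere as Pierce1, a protein inside doublet microtubules, had 10.9, 125 and 104 CPM in IP and 5.13, 0.872, 3.99 and 5.06 in Input. This came to a log2 fold of 4.41 ± 0.83 (SE, adjusted p by edgeR = 0.0231, blocked 0.127). 1700028P14Rik (ENSMUSG00000033053.4, chromosome 19, 23558753 to 23652812, minus strand) had 8.17, 116 and 68.3 CPM in IP and 4.39, 2.101, 1.61 and 1.25 in Input (log2 fold 4.77 ± 0.82 SE, adjusted p by edgeR = 0.0181, blocked 0.163). In 1700007K13Rik and 1700028P14Rik IP 1 was above the highest Input by a small margin and IP 3 and IP 4 by a large one.

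1700029J07Rik (ENSMUSG00000071103.9, chromosome 8, 45953606 to 45975252, minus strand) and 1700088E04Rik (ENSMUSG00000033029.12, chromosome 15, 79129349 to 79141253, minus strand) stood above Input in every IP as well. They had 10.4, 51.96 and 36.6 and 2.303, 17.8 and 16.9 CPM in IP 1, IP 3 and IP 4. Their Inputs had 3.24, 1.01, 4.805 and 2.73 CPM and 0.392, 0.425, 1.09 and 0.8105 CPM. The log2 folds were 3.49 ± 0.62 and 4.18 ± 0.76 (SE, adjusted p by edgeR = 0.01705 and 0.0181, and 0.0606 and 0.0721 with the block). 1700088E04Rik overlaps Micall1 and Polr2f on the other strand and is uncertain. The 2 smallest rises among clones of this kind, chosen after their values were seen, were those of 1700001L19Rik and 1700003E16Rik. 1700001L19Rik had 11.03, 142 and 89.2 CPM in IP and 8.51, 8.25, 8.93 and 10.95 in Input, so IP 1 barely exceeded Input 4 (log2 fold 3.14 ± 0.65 SE, adjusted p by edgeR = 0.0303, blocked 0.177). 1700003E16Rik had 11.01, 25.4 and 27.9 CPM in IP and 3.34, 3.35, 5.73 and 8.38 in Input (log2 fold 2.04 ± 0.47 SE, adjusted p by edgeR = 0.0351, blocked 0.0992).

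A noncoding clone and a clone of disputed class completed the 19. 1700019G24Rik (ENSMUSG00000085416.1, chromosome 6, 5963909 to 5977393, minus strand), annotated as noncoding, had the largest log2 fold of the clones, 6.73 ± 1.42 (SE, adjusted p by edgeR = 0.0313, blocked 0.0377). It had 1.08, 27.7 and 15.2 CPM in IP and 0, 0.268, 0.273 and 0 in Input, where Input 1 and Input 4 had 0 counts. 4930519F16Rik (ENSMUSG00000031325.15, chromosome X, 103182971 to 103311782, minus strand) is a pseudogene in GENCODE and protein-coding in RefSeq. It had 2.02, 26.5 and 20.8 CPM in IP and 0.0245, 0.0447, 0.546 and 0.0246 in Input, with a log2 fold of 6.70 ± 1.27 (SE, adjusted p by edgeR = 0.0229, blocked 0.0372). Both lay above every Input in each IP and kept their calls with the block.

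Calls to the higher side lay almost wholly among the coding clones. Of 106 coding clones 17 were higher and 2 lower (16.0% and 1.89%), with a median log2 fold of 0.42, and with the block 5 and 0. Over all 14778 coding genes tested the shares were 4.06% and 2.02% and the median 0.12. Of 123 noncoding clones tested 1 was higher and 3 lower (0.813% and 2.44%), with a median of -0.39, and with the block 1 and 0. Over all 904 noncoding genes tested the shares were 1.77% and 3.76% and the median -0.44. The coding clones were also more abundant, with a median level of 6.70 CPM in IP and 2.34 in Input. The noncoding clones had 0.931 and 0.859 CPM, and the part of level in the calls was not tested. The 16 higher coding clones with an annotated coding sequence had 93 to 1082 codons, with a median of 222, and the 89 other coding clones 86 to 5005, with a median of 301. Of the 19 higher clones 16 were of the series of 1700012B09Rik, out of 100 tested, 1 of the series of 4930519F16Rik, out of 86, and 2 of the series of 4932411E22Rik, out of 10. The series of 4931429I11Rik and 4933434E20Rik had 0 of 10 and 0 of 30. Over all tested genes the share called higher was 3.64%, and the difference between series was not tested.

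**Figure D3:**
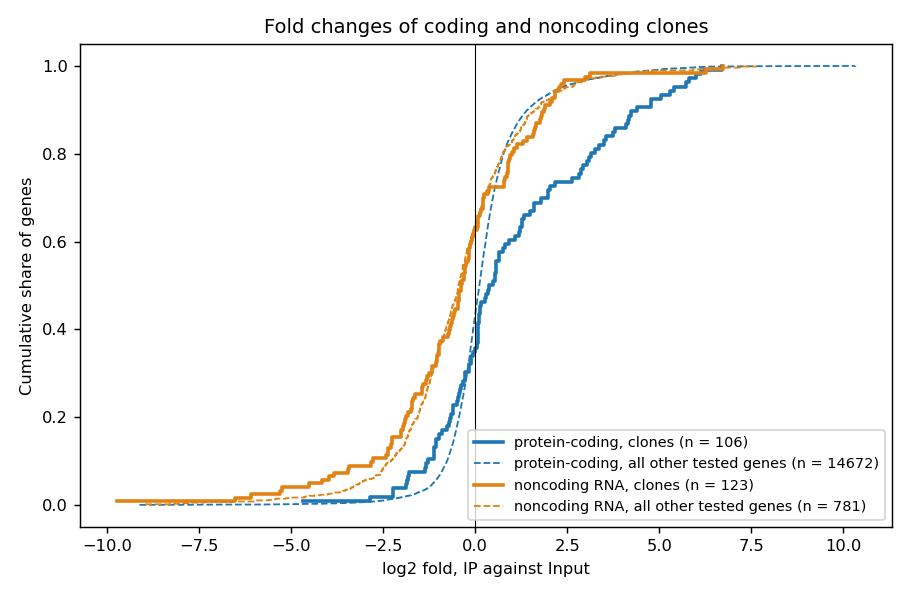
Cumulative share of genes by log2 fold of IP against Input, for coding (blue) and noncoding (orange) clones (thick lines) and for all other tested genes of each class (thin dashed lines). The coding clones run to the right of the other coding genes above 0, and the noncoding clones run close to the other noncoding genes.

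How a clone met the count rule bears on these counts. Of the 239 clones 103 had at least 10 counts in all 7 libraries, 0 in the 3 IP libraries alone, 9 in Input alone and 127 in other mixes. Of the 103 present throughout, 14 were higher and 4 lower (13.6% and 3.88%), beside 3.64% and 2.16% of all genes. All 14 were among its 60 coding clones, where the median log2 fold was 0.56. With the block 1 of the 103 was higher and 0 lower. A rule that looked at Input alone (at least 10 counts in at least 3 of the 4 Inputs) kept 183 clones, of which 16 were higher and 5 lower (8.74% and 2.73%). With the block 2 of the 183 were higher and 0 lower, beside 7 and 0 of the 236 clones tested. Of the 92 noncoding clones kept 0 were higher. The clones with the largest folds of the 19, 1700019G24Rik, 1700007G11Rik and 4930519F16Rik, were not among the 183. They had met the count rule only with their IP counts, and so had Cfap77 and Cfap61, which were called with the block. With the 7 counts of a clone ranked from the highest, the count at rank 3 was 10 in 4930455G09Rik, 4930513N10Rik and 4930562C15Rik, just inside the rule. It was 9 in 1700018G05Rik, 1700073E17Rik and 4930596I21Rik, just outside. 4930455G09Rik had counts of 0 in all IPs and 0, 19, 13 and 10 in Inputs 1 to 4. 1700073E17Rik, just outside, had counts of 39, 94 and 9 in the IPs and 0, 0, 1 and 7 in the Inputs.

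The clones called lower were a mix of abundant and scarce transcripts. 1700025G04Rik (ENSMUSG00000032666.16, chromosome 1, 151852403 to 152090125, minus strand; coding), among the 5 most abundant clones, had 125, 80.1 and 57.7 CPM in IP and 249, 224, 209 and 198 in Input. Every IP was below every Input, with a log2 fold of -1.33 ± 0.26 (SE, adjusted p by edgeR = 0.0231, blocked 0.0612). It overlaps Gm28610 on the other strand and is uncertain. The noncoding 4933431E20Rik (ENSMUSG00000086968.8, chromosome 3, 107888850 to 107896213, minus strand) had 57.8, 39.1 and 52.5 CPM in IP and 105, 120.3, 95.99 and 97.7 in Input (log2 fold -1.07 ± 0.21 SE, adjusted p by edgeR = 0.0233, blocked 0.127). It overlaps Eps8l3 and Gstm5 on the other strand, so its count is uncertain. The noncoding 1700003M07Rik (ENSMUSG00000085389.7, chromosome 4, 129960374 to 129963657, plus strand) had 5.17, 6.08 and 6.85 CPM in IP and 15.3, 21.7, 24.98 and 12.8 in Input (log2 fold -1.63 ± 0.37 SE, adjusted p by edgeR = 0.0333, blocked 0.165). The noncoding 4930506A18Rik (RefSeq interval on chromosome 8, 106282229 to 106335754) had 0 counts in all 3 IP libraries and 2.89, 4.202, 2.24 and 0.221 CPM in Inputs 1 to 4. Against a floor of 3 counts over the 3 IPs together, its mean level was at least 115.2-fold lower in IP (edgeR adjusted p = 0.02897, and 0.143 with the block). It was 1 of the 9 clones that met the count rule through Input alone, and such a clone had to be lower in IP.

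Several abundant clones did not pass the test, and in a pair of them IP 1 went against the other IPs. 4932438A13Rik, a very large coding gene also known as Bltp1 (5005 codons), had the highest mean CPM of the clones. It had 629.5, 120.2 and 144 CPM in IP and 210.1, 173, 190.1 and 236 in Input (log2 fold 0.56 ± 0.51 SE, adjusted p by edgeR = 0.584). IP 1 alone was above Input and IP 3 and IP 4 below it, and without IP 1 the gene was called lower (log2 fold -0.62, edgeR adjusted p = 0.0191). It overlaps Gm12531 on the other strand and is uncertain. 1700020I14Rik (Oip5os1), the long noncoding RNA Cyrano, had 44.8, 242 and 265 CPM in IP and 238, 230.5, 229 and 246 in Input (log2 fold -0.36 ± 0.48 SE, adjusted p by edgeR = 0.722). Here IP 1 alone was low, and without it the log2 fold was 0.10. Among clones with a GENCODE exon length, 1700037H04Rik, picked out for this level, had the highest mean Input per kilobase of exon, at 39.96 CPM per kb. Oip5os1 followed at 28.4. Neither was called, and in IP they had 24.7 and 22.1 CPM per kb.

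**Figure D4:**
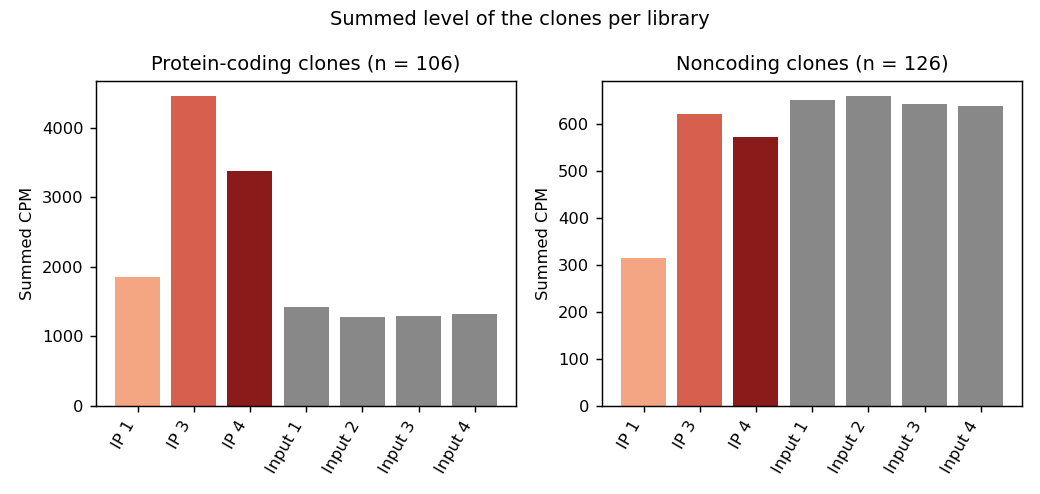
Summed CPM of the 106 coding clones (left) and the 126 noncoding clones (right) in each library; bars start at 0 and the axes differ. The coding clones summed to 1853, 4446 and 3375 CPM in IP 1, IP 3 and IP 4 and to 1275 to 1413 in the Inputs, and the noncoding clones to 314.2, 622.7 and 572.8 CPM in IP and 640.1 to 659.6 in Input.

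The summed level of the coding clones was above every Input in each IP, and that of the noncoding clones below every Input. In IP 1 the coding sum was 1853 CPM, of which 4932438A13Rik alone gave 629.5. The 19 higher clones summed to 244.9, 3022 and 2136 CPM in IP 1, IP 3 and IP 4 and to 46.1 to 84.2 CPM in Input.

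Some clones with large positive folds did not pass. The largest was 1700023L04Rik (Smkr-ps), noncoding in GENCODE, with 0.1402, 11.8 and 10.1 CPM in IP and 0, 0, 0 and 0.368 in Input (log2 fold 6.27 ± 1.83 SE, adjusted p by edgeR = 0.0781). Inputs 1 to 3 had 0 counts, and IP 1 was below Input 4. Cfap77 and Cfap61, given above, were the next. 4931429I11Rik is Jhy, a gene whose loss in mice gives juvenile hydrocephalus with defective ependymal cilia, and it is named here after its values were seen. It had 1.14, 16.5 and 13.4 CPM in IP and 2.53, 2.24, 0.519 and 0.368 in Input, so IP 1 lay within the Input range and IP 3 and IP 4 above it (log2 fold 2.87 ± 0.94 SE, adjusted p by edgeR = 0.103, and 0.00256 without IP 1).

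For comparison, a list of known axoneme parts and other genes of motile cilia, among them the ependymal marker Foxj1, gave 57 genes with proper names. Of these 57, 40 were higher and 0 lower (70.2%), with a median log2 fold of 3.49, and 12 were higher with the block. Another 6 entries of that list are themselves clones here under their older symbols, 2 of them (Cfap54 and Cfap61) in both places. Of 680 tested symbols ending in Rik from other number series, 16 were higher and 28 lower (2.35% and 4.12%), with a median of -0.30, and with the block 4 and 0. Some of these series, such as that of 4921536K21Rik, also come from testis, so this is not a set without testis clones. Among the 291 coding ones 11 were higher and 11 lower (3.78% each), beside 17 and 2 of the 106 coding clones described here. No test of the difference between these groups of genes was made.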

How the data were processed

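The deposited files hold raw counts of reads per gene symbol, 1 table per library, made by the authors with STAR 2.0.0e and HTSeq on mm10, per the submitters' processing notes; for the annotation, the strand setting and the overlap mode, the sources used here give nothing. Rows that name no gene stayed out: reads not assigned to a gene were 40.1% to 49.0% of the reads in IP and 45.7% to 52.1% in Input. The counts of IP and Input were compared with edgeR 4.0.16 (R 4.3.3; TMM factors, filterByExpr with a minimum count of 10 and a total of 15, robust quasi-likelihood test), with p-values adjusted over all 17375 tested genes by Benjamini-Hochberg and a threshold of 0.05. CPM are on the TMM scale. The SE given with a log2 fold was derived from that test, as the absolute fold divided by the square root of its F statistic. It is thus not a separate measure of spread. The test was tried on simulated data first. There it called 39 of 50 and 36 of 47 genes with a true log2 fold of 4 and -4. It called 31 of 50 and 25 of 46 with 2 and -2. It also called 17 of 16672 unchanged genes, so the false share of its calls was above the threshold of 0.05. Alternatives were DESeq2 1.42.0, other scalings and filters, each library left out, and the replicate number as a block.

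Replicate numbers 1, 3 and 4 share a sequencing lane between IP and Input in the labels, which is where the pairing comes from; the deviations of same-numbered libraries correlated at 0.032, 0.043 and 0.026. Classes and positions are from GENCODE M21 and RefSeq GRCm38.p6, the build mm10 names, and 195 clones matched by symbol and 32 by synonym, while 12 had no single match. The clones and gene lists were chosen with earlier results of these data known. Named by rule were the 15 higher clones with the largest folds, the 5 lower ones, the 5 most abundant, 3 on either side of the count limit, up to 3 called noncoding clones with the smallest p, and the 3 largest positive folds not called. The 4 other higher clones, those named Cfap, Jhy, 1700037H04Rik, Ak8, Wdr54, Ufsp2, Ankfn1, 1700024F13Rik with its partner row and 4921536K21Rik were named after their values were seen.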

Additional observations from a re-analysis of the deposited data

Results flagged for a closer look

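Of 32 clones checked for a single Input library far from the other 3, 4 had one, where chance gives about 1 in 20. 1700023L04Rik had 0.368 CPM in Input 4 and 0 in the other Inputs. 1700101E01Rik (Cfap77) had 1.6 CPM in Input 4, above its other Inputs. 4930519F16Rik had 0.546 CPM in Input 3, above its other Inputs. 4933434E20Rik had 37.3 CPM in Input 4, below its other Inputs.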

How the results depend on the processing

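The number of clones called varied with the fit and with which library was left out. With the replicate number as a block, 7 clones were higher and 0 lower, beside 96 and 33 of all genes, 4 and 0 of the other Rik symbols and 12 higher of the motile cilium list. With DESeq2 36 clones were higher and 15 lower, beside 1595 and 1158 of all genes and 45 and 84 of the other Rik symbols. With 1 library left out, the counts higher and lower ran from 0 to 43 and 0 to 23 for clones, from 4 to 2259 and 16 to 1724 for all genes, from 0 to 63 and 0 to 96 for other Rik symbols, and from 0 to 50 higher for the motile cilium list. DESeq2's size factors, total counts, no filter and the count rule as a filter left the calls of the clones at 13 to 19 higher and 4 to 5 lower. Over all genes the same fits called 530 to 652 higher and 313 to 395 lower. A rule of at least 10 counts in all 7 libraries kept 103 clones. Leaving out 1 library, the log2 fold of 4932438A13Rik ran from -0.62 (without IP 1) to 0.91, that of 1700020I14Rik from -0.72 to 0.10 (without IP 1) and that of 4930562C15Rik, 0.54 with all libraries, from -6.05 (without IP 1) to 1.12; the last was -1.44 with the block. The cause of these changes was not tested.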
